A study of Mus musculus with 3 samples.

Results

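Accessible chromatin was described at 7 genes that mark the primitive streak and the mesendoderm: Brachyury (T, also written Tbxt), Eomes, Mixl1, Gsc, Mesp1, Evx1 and Lhx1. A peak of the deposited ATAC-seq lists belonged to a locus when its midpoint lay inside the gene body or within 50 kb of it on the mouse assembly GRCm38. This gave 41 of 88898 Halo-Sox2 peaks, 53 of 83995 Halo-Sox2a peaks and 50 of 72638 control peaks. Overlapping peaks of the 3 lists were merged into union regions, of which 62 of 130664 lay at the loci.

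All lines were made from CGR8, a mouse embryonic stem cell line, and were kept in serum with LIF, the GSK3 inhibitor CHIR99021 and the MEK inhibitor PD184352. The Halo-Sox2 group was the line SES4.1, given 300 ng/mL doxycycline for 20 h to induce Sox2 fused to the self-labelling Halo tag. The Halo-Sox2a group was the line SES5.1, given 70 ng/mL for 20 h to induce a form of the protein that the labels name Sox2a and do not describe. The control was the line SES11, which carried no inducible transgene, and the labels name no doxycycline for it. Both transgenic lines were stained with 50 nM of a Halo dye and sorted within the same intensity gate. The labels do not say whether a line is 1 clone or whether control cells were sorted. Each group had 1 library, so differences in line, dose and sorting cannot be told apart from the expressed protein, and no difference below could be set against a replicate error or tested.

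The primitive streak is the part of the gastrulating embryo through which epiblast cells pass to become mesoderm and definitive endoderm. Nodal and Wnt signals induce T-box factors there, which together with homeobox factors switch on mesoderm and endoderm genes. In embryonic stem cells these genes are mostly silent or low while Sox2 and Oct4 hold the pluripotent state. Their promoters are known for carrying both activating and repressive histone marks, and several are rich in CpG dinucleotides.

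RefSeq promoter sequences (GRCm38.p6, 250 bases before to 50 bases after the start) were found for 6 of the 7 genes. The 4 shown are the 3 with motif matches and that of Lhx1. The Lhx1 start lay under a peak in both transgene lists and not in the control. Eomes, not shown, also differed between lists in how far peaks reached into its window. Capitals mark letters matching a TCF/LEF motif (CTTTGAA or CTTTGAT), the T-box motif TCACACCT or the OCT octamer ATGCAAAT on either strand in the first 3 sequences, and CpG dinucleotides in the Lhx1 sequence. They are the T promoter (chr17:8434173-8434472, plus strand), the Mesp1 promoter (chr7:79793541-79793840, minus strand), the Evx1 promoter (chr6:52313248-52313547, plus strand) and the Lhx1 promoter (chr11:84525485-84525784, minus strand).
T: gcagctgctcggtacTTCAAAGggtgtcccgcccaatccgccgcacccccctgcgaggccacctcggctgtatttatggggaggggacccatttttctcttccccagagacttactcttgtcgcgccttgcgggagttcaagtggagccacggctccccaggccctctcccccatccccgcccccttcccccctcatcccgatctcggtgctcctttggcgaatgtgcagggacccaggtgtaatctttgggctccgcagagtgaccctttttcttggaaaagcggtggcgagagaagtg
Mesp1: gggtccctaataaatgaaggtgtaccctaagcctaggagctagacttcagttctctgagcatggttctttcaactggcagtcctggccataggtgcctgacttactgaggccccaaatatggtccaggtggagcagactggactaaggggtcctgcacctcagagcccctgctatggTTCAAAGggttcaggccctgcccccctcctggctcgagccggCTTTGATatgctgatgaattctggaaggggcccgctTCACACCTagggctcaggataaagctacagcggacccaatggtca
Evx1: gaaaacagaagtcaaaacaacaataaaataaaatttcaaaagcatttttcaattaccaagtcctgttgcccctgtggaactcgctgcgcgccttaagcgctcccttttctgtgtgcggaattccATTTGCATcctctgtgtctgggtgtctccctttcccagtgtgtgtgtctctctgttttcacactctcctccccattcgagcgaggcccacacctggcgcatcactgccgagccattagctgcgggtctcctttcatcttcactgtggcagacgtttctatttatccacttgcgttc
Lhx1: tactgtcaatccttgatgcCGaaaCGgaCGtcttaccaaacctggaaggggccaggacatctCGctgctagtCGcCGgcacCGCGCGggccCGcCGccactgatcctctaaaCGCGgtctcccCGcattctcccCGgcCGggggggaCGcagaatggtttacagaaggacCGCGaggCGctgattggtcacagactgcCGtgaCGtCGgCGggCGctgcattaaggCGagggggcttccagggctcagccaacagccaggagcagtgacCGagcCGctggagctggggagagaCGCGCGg

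The Mesp1 promoter held 3 of the matches: the T-box motif, with its first base 6 bases into the transcribed part, and a match to each TCF/LEF motif 31 and 73 bases before the start. A T-box match was present in 1.28% of the 32851 promoters in the table, CTTTGAT in 3.73% and CTTTGAA in 5.14%. The T promoter held a CTTTGAA match 235 bases before the start. The Evx1 promoter held the OCT octamer 126 bases before the start, a motif present in 1.74% of all promoters. No letters matching CATTGTT (a SOX motif, 3.78% of all promoters), the SOX-OCT composite (0.292%), AATCCACA (FOXH1, 0.855%) or TAATCC (Gsc/Otx homeobox, 7.06%) were found in the 6 windows. The motifs were searched on both strands, and a match is a description of letters, not a bound site.

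By CpG content the 6 promoters fell into unequal groups. The ratio of observed to expected CpG was 0.961 for Lhx1, 0.934 for Gsc, 0.71 for Evx1, 0.607 for T and 0.607 for Eomes, and 0.174 for Mesp1. The median over all promoters was 0.384, and 35.8% of them had a ratio of 0.6 or above, as had 5 of the 6 here. Lhx1 held 31 CpG dinucleotides in its 300 bases and Mesp1 held 4.

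Each peak carries a score that the authors deposited without a stated scale. It was read only as a percentile, the share of peaks in the same list with a lower score. Peaks at the loci were of middling rank. Their median percentile was 39.8 with Halo-Sox2 (range 3.27 to 92.1), 45.5 with Halo-Sox2a (0 to 97.3) and 52.0 in the control (0 to 91.7). They were somewhat wider than the rest, with medians (Halo-Sox2, Halo-Sox2a, control) of 573, 595 and 552 bp against 493, 486 and 455 bp over the whole lists.

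The loci differed in how many peaks they held. Eomes had 10 peaks with Halo-Sox2, 14 with Halo-Sox2a and 11 in the control, and Gsc had 8, 11 and 10 in the same order. Mesp1 had 6, 8 and 8, T had 5, 9 and 7, and Evx1 had 5, 5 and 6. Mixl1 had 4, 3 and 3 and Lhx1 had 3, 3 and 5. The median protein-coding gene had 7, 7 and 6 peaks (quartiles 4 and 11, 4 and 11, 3 and 9). Eomes and Gsc therefore lay at or above the upper quartile in every list except Halo-Sox2. Lhx1 lay below the lower quartile in both transgene lists, and Mixl1 in Halo-Sox2a. Although the Halo-Sox2 list was the largest of the 3, it held the fewest peaks at these loci with the window of 50 kb; with 100 kb the counts were 94, 102 and 90, and the control held the fewest. It was alone the lowest at 4 genes (T, Eomes, Gsc and Mesp1), level with Halo-Sox2a at Evx1 and Lhx1, and the highest at Mixl1.

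Most of what was open at these genes in the transgenic cells was also open in the control. A control peak overlapping by 1 bp or more was missing for 8 of 41 Halo-Sox2 peaks (19.5%, 95% interval by Wilson's method 10.2 to 34.0%), against 49.3% of all Halo-Sox2 peaks and 46.6% of those within 50 kb of any protein-coding gene. It was missing for 12 of 53 Halo-Sox2a peaks (22.6%, 13.5 to 35.5%), against 33.4% over the whole list and 33.0% near genes. These intervals hold counting error alone and treat peaks as independent, which neighbours are not. The whole-list shares lay outside the counting interval for Halo-Sox2 and inside it for Halo-Sox2a.

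Conversely, 16 of 50 peaks of the control (32.0%, 20.8 to 45.8%) had no Halo-Sox2 counterpart, against 37.5% of that list and 33.9% near genes. Only 9 (18.0%, 9.77 to 30.8%) had no Halo-Sox2a counterpart, against 22% of the list and 19.3% near genes. Set against each other, 7 of the 41 Halo-Sox2 peaks (17.1%, 8.53 to 31.3%) had no Halo-Sox2a counterpart. The whole list gave 38.7% and peaks near genes 35.5%. Of the 53 Halo-Sox2a peaks, 17 (32.1%, 21.1 to 45.5%) had no Halo-Sox2 counterpart. The whole list gave 35.4% and peaks near genes 33.6%. With lists cut to equal size, 2 of 32 Halo-Sox2 peaks (6.25%) had no Halo-Sox2a counterpart and 5 of 44 Halo-Sox2a peaks (11.4%) had no control counterpart, while the whole lists gave 37.2% and 27.7%.

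By region, 30 of the 62 (48.4%, 36.4 to 60.6%) were held by all 3 lists. The share was 32.1% over all union regions and 34.8% over those near genes. Regions of Halo-Sox2 alone numbered 4 (6.45%, 2.54 to 15.4%), against 24.3% of all regions and 22.7% near genes. Regions of Halo-Sox2a alone numbered 8 (12.9%, background 12.2%) and those of the control alone 6 (9.68%, background 10.2%). The Halo-Sox2a and control lists shared 8 regions that Halo-Sox2 lacked (12.9%, background 10.3%), at T, Eomes, Gsc and Mesp1. Both transgene lists shared 3 that the control lacked (4.84%, background 8.95%), 2 at Gsc and 1 at Evx1. Halo-Sox2 and the control shared 3 that Halo-Sox2a lacked (4.84%, background 1.9%), 1 each at Gsc, Evx1 and Lhx1. Lists of equal size left 0 of 53 regions to Halo-Sox2 and the control alone and 3 of 53 (5.66%) to Halo-Sox2a alone. Class shares over all regions were not computed for that setting, so these counts are not read as results about the loci.

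**Figure D1:**
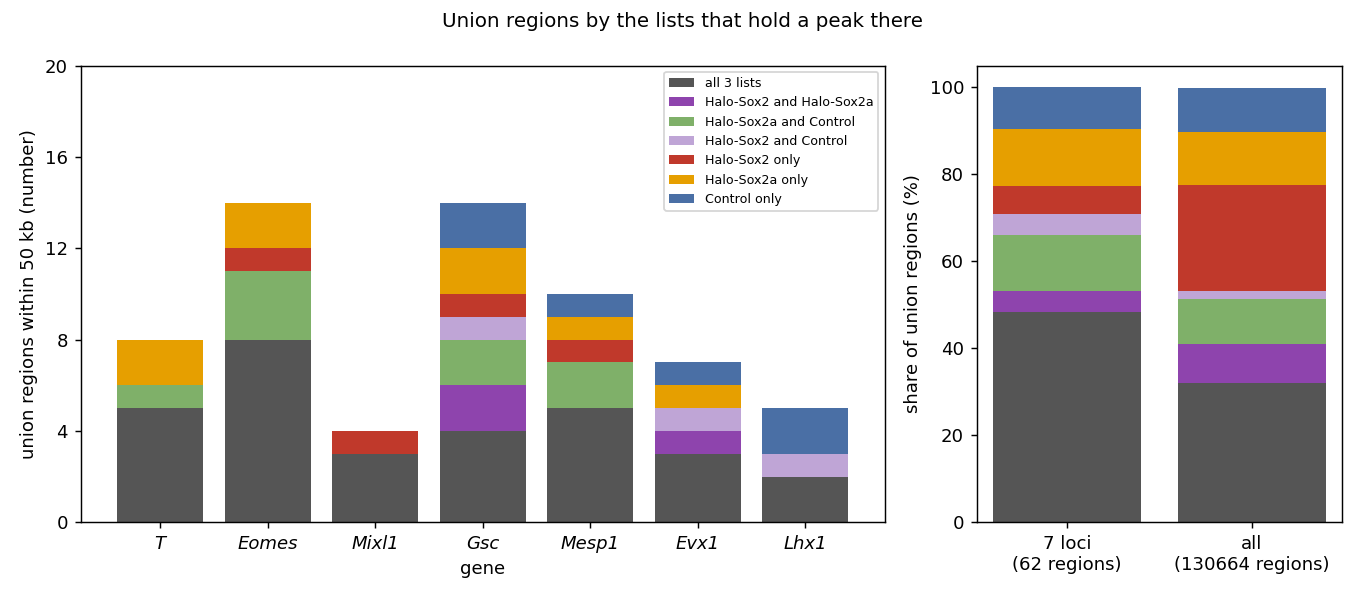
Left, number of union regions within 50 kb of each gene (y axis), stacked by the lists that hold a peak there. Right, the share of regions in each class (%) at the 7 loci (62 regions) and over all 130664 regions. Regions of all 3 lists make up 48.4% at the loci and 32.1% over all, and regions of Halo-Sox2 alone 6.45% and 24.3%.

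None of the 32 regions held by 1 or 2 lists reached percentile 75 in a list that held it. The share over all such regions is not given here. The highest was a region at Gsc that Halo-Sox2a and the control shared, at percentile 72.0 in the Halo-Sox2a list. Among regions of a single list the highest was at T, at percentile 59.0 in the Halo-Sox2a list. Regions of Halo-Sox2 alone lay between percentiles 3.27 and 26.8 (median 15.5), where such regions over the whole genome had a median of 37.8. The single-list classes did not share a direction. Regions of Halo-Sox2a alone had a median of 6.42 against 19.2, and those of the control alone 33.5 against 18.3.

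**Figure D2:**
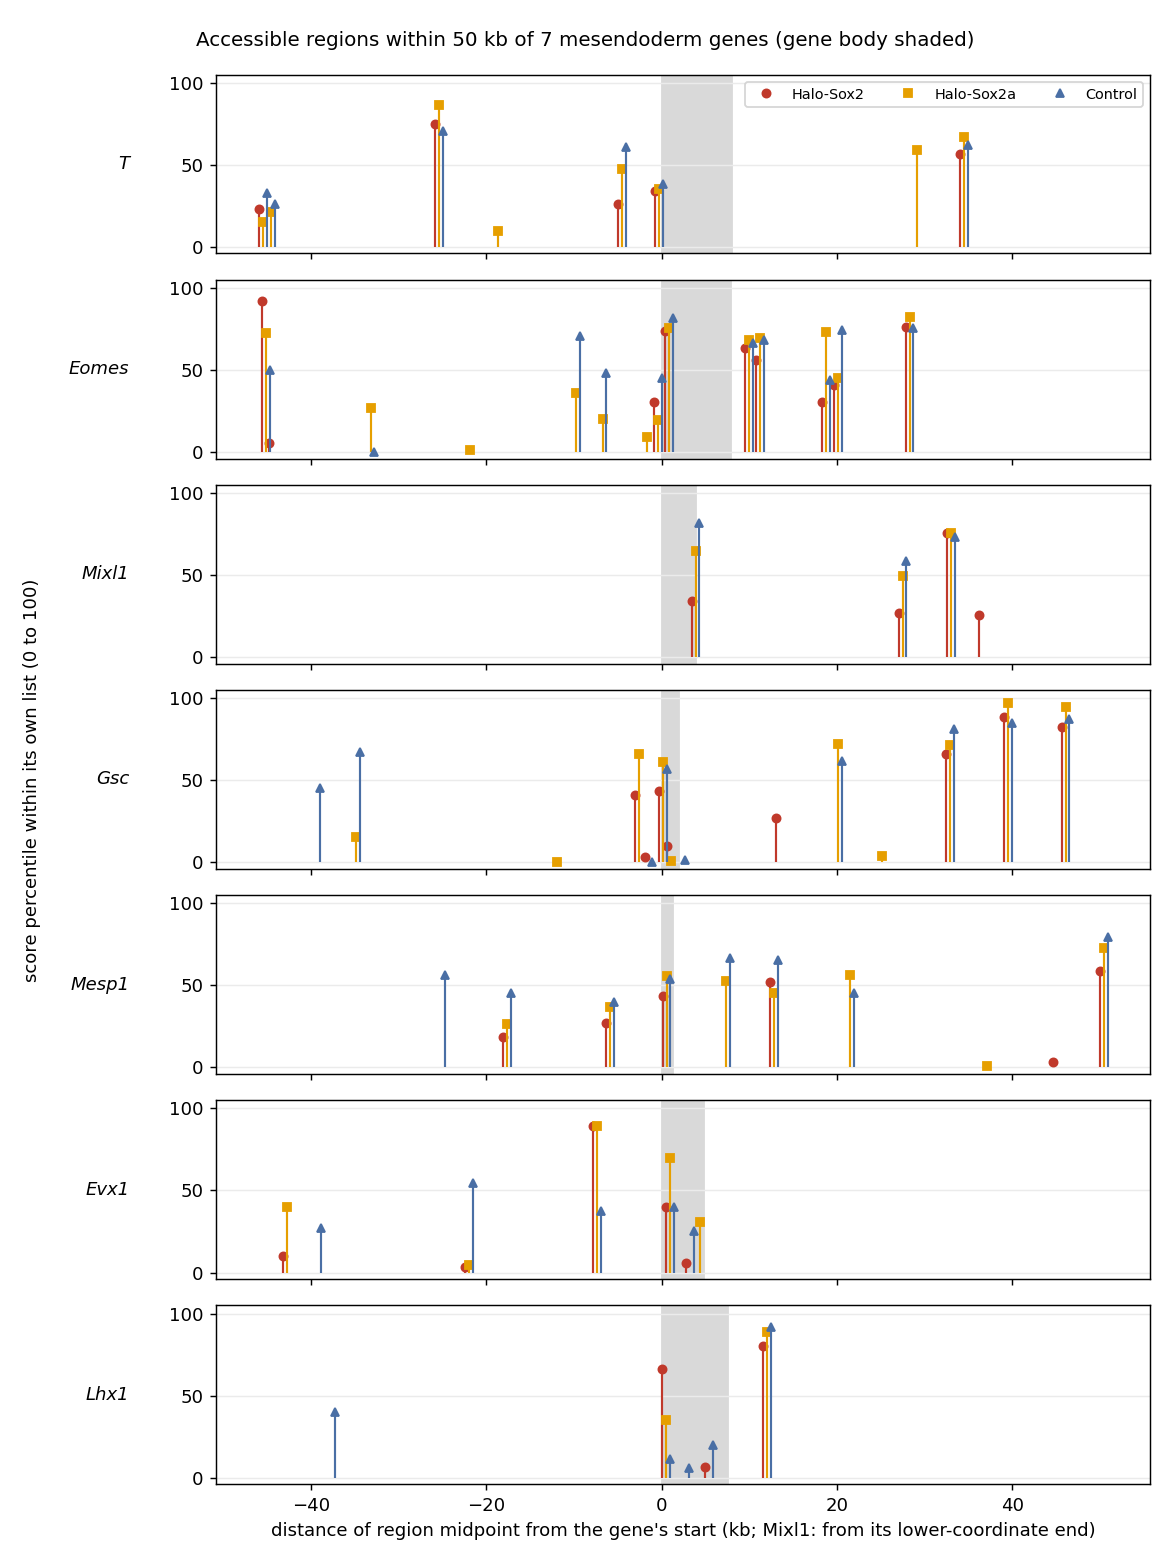
Percentile of each region within its own list (y axis, 0 to 100) against the distance of its midpoint from the gene's start (x axis, kb; from the lower-coordinate end for Mixl1), 1 panel per gene with the gene body shaded. Points of the 3 lists at a region are set slightly apart. The Evx1 region at -7.34 kb stands at 89.4 and 89.2 in the transgene lists and 37.5 in the control, and Eomes regions between -33.2 and -1.67 kb carry no Halo-Sox2 point.

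The T-box genes come first. T (gene ID 20997, chromosome 17, 8434423 to 8442496) encodes Brachyury, which is needed to form posterior mesoderm and the notochord. Distances are from the transcription start to the region's midpoint, negative upstream. The region over the start (8433028 to 8435149) had percentiles of 34.3 in Halo-Sox2, 35.1 in Halo-Sox2a and 38.1 in the control. A peak of each list covered all 300 bases of the promoter printed above, so this start was open to a similar rank in all 3 libraries. The predicted gene LOC115486424 also lies over the midpoint of that region.

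The upstream regions of T were less alike. At -4.51 kb (8429460 to 8430370) the percentile was 25.9 in Halo-Sox2, 47.6 in Halo-Sox2a and 60.6 in the control, a Halo-Sox2 minus control difference of -34.6 points. The highest region of the locus in every list lay at -25.4 kb (8408665 to 8409437), inside the neighbouring gene T2, with percentiles of 74.7, 86.5 and 70.3 in the same order. A region at 34.5 kb had 56.5, 66.7 and 62.2, and one at -45.5 kb had 22.8, 15.4 and 32.6. Every Halo-Sox2 peak at T overlapped a control peak. The Halo-Sox2a list alone held regions at 29.2 kb (percentile 59.0) and at -18.7 kb (9.5), and shared one at -44.6 kb with the control (21.2 and 26.4).

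Eomes (gene ID 13813, chromosome 9, 118478186 to 118486132) encodes a T-box factor needed for definitive endoderm and for the earliest cardiac mesoderm. Its highest gene-end region (118478442 to 118479674), just inside the gene, had percentiles of 73.6 in Halo-Sox2, 75.8 in Halo-Sox2a and 81.7 in the control. A second region just before the start (118477488 to 118478167) had 30.2, 19.2 and 44.8. No peak of any list covered the start base itself, which lay 22 bp from the nearest Halo-Sox2 peak and 253 bp from the nearest peak of each other list. The Halo-Sox2 peak before the start reached 229 bases into the 300-base promoter window, and the other lists' peaks reached 0.

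The largest difference from the control at Eomes lay far upstream. At -45.1 kb (118432598 to 118433475), over the non-coding genes Platr11 and 4933432G23Rik, the percentile was 92.1 in Halo-Sox2 (rank 7002), 72.2 in Halo-Sox2a and 50.2 in the control. This was the highest Halo-Sox2 peak of the locus, whereas the highest control peak was the one inside the gene. The differences from the shared control were 41.9 points for Halo-Sox2 and 22 for Halo-Sox2a, the latter 17.6 with lists of equal size.

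Between that element and the start, Eomes showed regions without Halo-Sox2 peaks. Regions at -33.2, -9.75 and -6.73 kb were held by Halo-Sox2a (percentiles 26.6, 35.8 and 20.3) and the control (0.0606, 70.7 and 48.3). Regions at -21.9 and -1.67 kb were held by Halo-Sox2a alone, at percentiles 1.06 and 8.94. A region of Halo-Sox2 alone lay beside the far element, at -44.3 kb and percentile 5.55. All 6 of these regions lay over long non-coding genes (Platr11, 4933432G23Rik, Gm33285 or Gm33408).

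Downstream of Eomes, every region was held by all 3 lists. Those at 10.0 and 11.2 kb had percentiles of 63.3 and 55.8 in Halo-Sox2, 68.1 and 69.6 in Halo-Sox2a and 66.7 and 68.1 in the control. A region at 18.8 kb (118496577 to 118497379) was higher with Halo-Sox2a alone, at 73.3 against 30.2 in Halo-Sox2 and 43.6 in the control. Its neighbour at 20.1 kb (118497981 to 118498678) was lower in both transgene lists, at 40.6 in Halo-Sox2 and 44.8 in Halo-Sox2a against 74.4 in the control. The region at 28.3 kb lay at an end of Golga4, another gene, with percentiles of 76.1, 82.3 and 75.5, and was the highest Halo-Sox2a peak of the locus.

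Of the homeobox genes, Mixl1 (gene ID 27217, chromosome 1, 180693043 to 180697034) is a paired-type factor of the streak with a role in endoderm. It had a single gene-end region (180696388 to 180697465), over its higher-coordinate end. The percentile there was 34.3 in Halo-Sox2, 64.4 in Halo-Sox2a and 81.6 in the control, so that the order was control, Halo-Sox2a, Halo-Sox2. The Halo-Sox2 minus control difference was -47.2 points and that of Halo-Sox2a -17.2 points. The control peak there was the highest control peak of the locus, ranked 13290, while in both transgene lists the highest was at an end of Acbd3, another gene (75.4 in Halo-Sox2 and 75.7 in Halo-Sox2a, 73.1 in the control). A region at 27.5 kb (180720362 to 180720766, distance from the lower-coordinate end) followed the same order as the gene-end region, with 26.8, 49.3 and 58.6. The fourth region was of Halo-Sox2 alone, inside Acbd3, at percentile 25.4.

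Gsc (gene ID 14836, chromosome 12, 104471209 to 104473236, minus strand) encodes goosecoid, a repressor made in the anterior streak and the organizer. A peak of each list covered its start, with percentiles of 43.6 in Halo-Sox2, 61.3 in Halo-Sox2a and 56.8 in the control (region 104472645 to 104473401). Its strongest regions lay downstream, outside genes. At 39.5 kb (104432884 to 104434533) the percentiles were 88.5, 97.3 and 84.9, and at 46.1 kb (104426944 to 104427417) they were 82.3, 94.8 and 87.5. The Halo-Sox2a peak at 39.5 kb, at rank 2229 with a score of 627, was the highest of that list over the 7 loci. Another downstream region, at 32.9 kb, had 66.1, 71.3 and 80.9.

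Gsc also held 2 of the 3 regions present with both proteins and not in the control. The stronger lay at -2.59 kb (104475424 to 104476233), within the non-coding gene Gm10000, at percentile 40.9 in Halo-Sox2 and 66.1 in Halo-Sox2a. The other lay inside the gene (104471886 to 104472399), at 9.93 and 0.816. Halo-Sox2a and the control shared regions at 20.1 kb, with 72.0 in Halo-Sox2a and 61.4 in the control, and at -34.9 kb, with 15.4 and 67.2. The control alone held regions at -39.4 kb (45.1) and 2.28 kb (1.62), Halo-Sox2a alone at 25.2 kb (3.9) and -11.9 kb (0), and Halo-Sox2 alone at 13.5 kb (26.8). The last, at -1.48 kb, was shared by Halo-Sox2 (3.27) and the control (0).

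Evx1 (gene ID 14028, chromosome 6, 52313498 to 52318389) is an even-skipped type homeobox gene of the posterior streak, next to the Hoxa cluster, and held a pair of regions that differed from the control in opposite directions. At -7.34 kb (52305801 to 52306507, outside genes) the percentile was 89.4 in Halo-Sox2 (score 546, rank 9407), 89.2 in Halo-Sox2a (score 366, rank 8975) and 37.5 in the control (score 60, rank 45161). At -22 kb (52291074 to 52291870, outside genes) it was 3.27 in Halo-Sox2, 4.48 in Halo-Sox2a and 54.4 in the control. Against the control that both comparisons share, the first region differed by 51.8 and 51.7 points and the second by -51.1 and -49.9 points. The same position was used in all 3 lists, since the 3 peaks had 545 bases in common at the first region and 307 at the second. At -22 kb was the highest control peak of the locus, and at -7.34 kb the highest peak of both transgene lists.

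At the Evx1 start the lists differed in where the peak lay. The Halo-Sox2 peak (52313409 to 52314436, percentile 39.8) covered the start and 139 bases of the promoter window that holds the OCT octamer. The octamer's bases lay outside that peak. The nearest Halo-Sox2a peak (52314314 to 52315518, percentile 69.6) began 816 bp inside the gene. The control had a small peak 588 bp inside the gene (52314086 to 52314320, percentile 6.1) and another beyond it (52314593 to 52315198, percentile 39.8). These peaks merged into 1 union region although no base was common to the highest peaks of all 3 lists. The antisense gene Evx1os overlaps this start, and the lists carry no strand.

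The other Evx1 regions were of low to middling rank. Both transgene lists and not the control held one at -42.7 kb (10.3 in Halo-Sox2, 40.0 in Halo-Sox2a), and the control alone one at -39.3 kb (27.3). Inside the gene, Halo-Sox2 and the control shared a region at 3.27 kb (5.55 and 25.1), and Halo-Sox2a alone held one at 4.44 kb (31.0).

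Lhx1 (gene ID 16869, chromosome 11, 84517975 to 84525534, minus strand) encodes a LIM homeobox factor of the anterior streak, needed for the head organizer and later the kidney. Its start was covered by a peak in both transgene lists and not in the control. The Halo-Sox2 peak (84525032 to 84526026) had percentile 66.5 and the Halo-Sox2a peak (84525335 to 84526205) 35.1, and both covered all 300 bases of the CpG-rich promoter above. The nearest control peak (84523932 to 84524344, percentile 11.2) lay 1190 bp inside the gene and overlapped only a second Halo-Sox2a peak (84524088 to 84525137, percentile 26.3). Through that peak the merged region counts as held by all 3 lists, although no base was common to the highest peaks of all 3. Lhx1 was the only one of the 7 genes without a control peak within 1 kb of a gene end.

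Elsewhere at Lhx1, the highest region in each list (84513075 to 84513992) lay at an end of the neighbouring gene Aatf, with percentiles of 80.5 in Halo-Sox2, 88.9 in Halo-Sox2a and 91.7 in the control. Halo-Sox2 and the control shared a region inside Lhx1 at 5.45 kb (6.24 and 19.7). The control alone held regions at 2.67 kb (6.1) and -37.7 kb (39.8).

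Mesp1 (gene ID 17292, chromosome 7, 79792241 to 79793590, minus strand), a bHLH factor of nascent and cardiac mesoderm, had the lowest-ranked locus by its highest Halo-Sox2 peak. The region over the gene (79792449 to 79793588) had percentiles of 43.3 in Halo-Sox2, 55.5 in Halo-Sox2a and 53.8 in the control. It ended at the start: the nearest edge lay 2 bp inside the gene in Halo-Sox2, 102 bp in Halo-Sox2a and 7 bp in the control. The bases before the start, with both TCF/LEF matches, therefore lay outside the peaks of every list. In contrast to the other starts this promoter is CpG-poor.

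The highest peak of each list near Mesp1 lay at 1 element, at ends of Pex11a and Wdr93 (79742699 to 79743508), with percentiles of 58.5, 72.7 and 79.7. A region at the neighbouring streak gene Mesp2 (79810947 to 79811497) had 18.8 in Halo-Sox2, 26.6 in Halo-Sox2a and 45.1 in the control. Regions at 12.8 and -5.88 kb had 52.0 and 26.8 in Halo-Sox2, 45.5 and 36.8 in Halo-Sox2a and 65.5 and 39.8 in the control. In these 4 shared regions outside the gene the control percentile was the highest of the 3. Halo-Sox2a and the control shared regions at 7.38 kb, at an end of Wdr93 (52.9 and 66.7), and at 21.5 kb (56.2 and 45.1). Single lists held regions at -25.1 kb (control, 56.6), 45.1 kb (Halo-Sox2, 3.27) and 37.1 kb (Halo-Sox2a, 1.06).

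**Figure D3:**
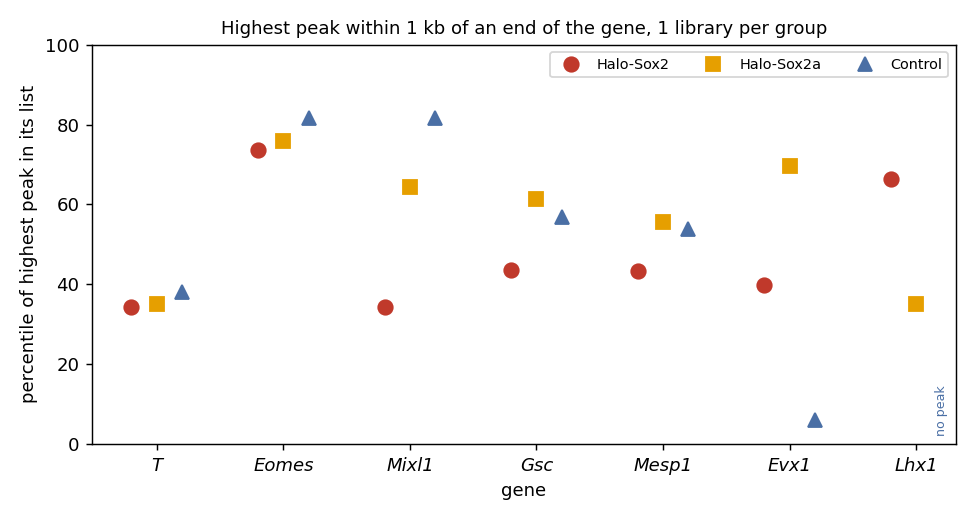
Percentile of the highest peak within 1 kb of an end of each gene (y axis, within its own list) for the 7 genes (x axis), with 1 point per library and no error bars. T, Eomes, Gsc and Mesp1 are spread over fewer percentile points than Mixl1 (34.3 to 81.6) and Evx1 (6.1 to 69.6), and Lhx1 has no control peak. The low Evx1 control point depends on the 1 kb limit: the next control peak, just beyond it, is at 39.8.

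At gene ends, a peak within 1 kb was present for 7 of the 7 genes with Halo-Sox2, 7 with Halo-Sox2a and 6 in the control. Over the 21900 protein-coding genes the shares were 65.2%, 66% and 65.3%. The members' gene-end peaks ranked below those of other genes that had one, with medians of 43.3, 61.3 and 55.3 against 75.6, 81.8 and 81.3. For the 4 genes T, Eomes, Gsc and Mesp1 the percentile in Halo-Sox2a was within 6 points of the control.

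Over the 30 regions held by all 3 lists, differences of 20 percentile points or more from the control ran in both directions. Halo-Sox2 was higher in 3 (10%) and lower in 7 (23.3%), against 12.9% and 24.6% of all 41984 such regions. Halo-Sox2a was higher in 5 (16.7%) and lower in 4 (13.3%), against 17% and 8.46%. Both comparisons share the control. In this setting the counts are near the background and are no result about these genes as a group. With lists of equal size, Halo-Sox2 was higher in 3 of 29 and lower in 15 (51.7%), against 10.7% and 33.1% of all regions there. Halo-Sox2a was then higher in 3 (10.3%) and lower in 7 (24.1%), against 13.1% and 11.7%. There the shares lower than the control lay above the background for both proteins, so the reading depends on the setting and was not tested.

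The median difference from the control was -10.8 points for Halo-Sox2 and -0.661 for Halo-Sox2a, against -5.11 and 1.81 over all regions. The 3 regions higher with Halo-Sox2 were the Lhx1 start, Evx1 at -7.34 kb and Eomes at -45.1 kb, and the same 3 were among the 5 higher with Halo-Sox2a. Of these 3, only the Evx1 region stayed past 20 points with Halo-Sox2a in both other settings: with lists of equal size the Lhx1 start gave 13.7 and Eomes at -45.1 kb 17.6, and with percentiles taken among shared regions alone they gave 8.36 and 20.3. The Lhx1 values set a Halo-Sox2 peak (66.5) and a Halo-Sox2a peak (35.1) against a control peak (11.2) that neither of them overlaps. The Halo-Sox2a peak that does overlap the control peak was at 26.3. With an overlap of at least 50% of the shorter peak, Halo-Sox2 was higher in 2 of 28 shared regions and lower in 7. Halo-Sox2a was then higher in 3 and lower in 4, and shares over all regions were not computed for that setting. Evx1 at -22 kb and Eomes at 20.1 kb were lower by 20 points or more in both transgene lists. For Evx1 at -22 kb lists of equal size gave no difference, since both transgene peaks were among the lowest that this setting removes, and percentiles among shared regions gave -32.3 and -33.3 points. Compared directly, Halo-Sox2 was higher than Halo-Sox2a in 1 region (3.33%, background 6.51%), the Lhx1 start, whose peaks lie apart as described, and lower in 5 (16.7%, background 26.4%), among them Eomes at 18.8 kb and the Mixl1 gene end.

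**Figure D4:**
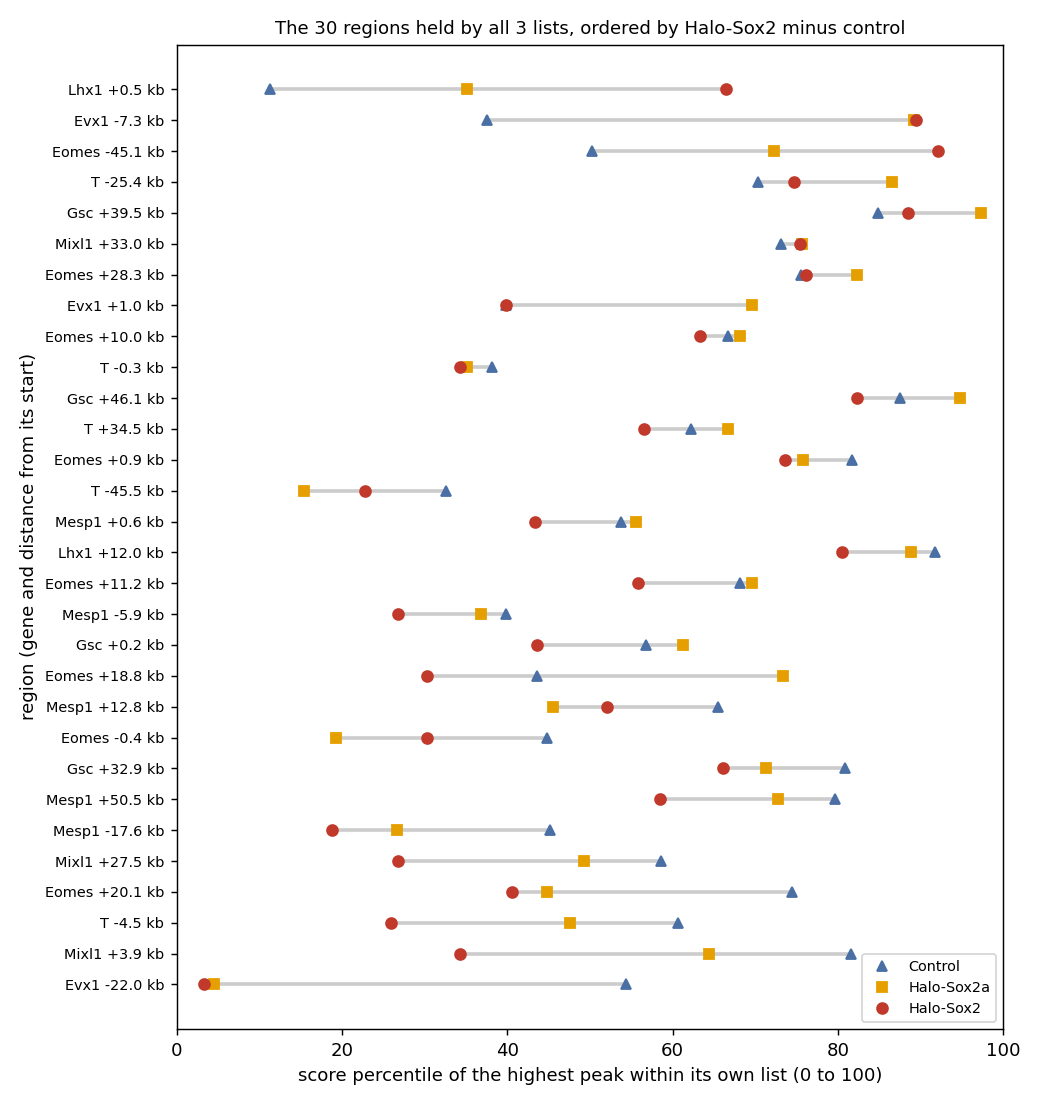
The 30 regions held by all 3 lists (y axis, gene and distance from its start), ordered by Halo-Sox2 minus control, with the percentile of the highest peak in each list (x axis, 0 to 100) and a grey line over their range. The Lhx1 start, Evx1 at -7.3 kb and Eomes at -45.1 kb head the order and Evx1 at -22.0 kb ends it. At Evx1 +1.0 kb the control point (39.8) lies under that of Halo-Sox2. The Halo-Sox2 and control peaks behind those points do not overlap.

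Other genes of the streak and its derivatives were read the same way from 4 lists with 23 genes, which had 307 regions within 50 kb. All 3 lists held 134 of these (43.6%, against 32.1% of all regions) and Halo-Sox2 alone 42 (13.7%, against 24.3%). Over all regions near genes these classes made up 34.8% and 22.7%. The other classes lay nearer the shares over all regions: Halo-Sox2a alone held 44 (14.3%, against 12.2%), the control alone 26 (8.47%, against 10.2%) and both transgene lists without the control 22 (7.17%, against 8.95%). The 4 gene lists differed. All 3 peak lists held 48.1% for signals, 32.9% for Wnt targets, 38.6% for endoderm and 52.9% for mesoderm genes. Halo-Sox2 alone held 5.77%, 15.8%, 28.1% and 11.4% in that order. For the cell type markers checked below, all 3 lists held 59.6% (neural), 41.8% (stem cell), 42.9% (fibroblast), 29.7% (trophoblast) and 28% (primitive endoderm). A gene-end peak was present for 20 of the 23 genes with Halo-Sox2, 20 with Halo-Sox2a and 18 in the control, where all protein-coding genes gave 65.2%, 66% and 65.3%. Mesp2 is in these lists and shares regions with the Mesp1 locus.

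Among 7 signals and signal partners, Nodal, the TGF-beta ligand that induces the streak, had no control peak at a gene end, percentile 22.8 in Halo-Sox2 and 92.4 in Halo-Sox2a. Wnt3, the ligand that starts streak formation, had 40.9, 75.9 and 39.8 in Halo-Sox2, Halo-Sox2a and the control, and Wnt3a, a later Wnt ligand, 3.08, 14.5 and no control peak. The Nodal co-receptor gene Tdgf1 had 90.7, 91.5 and 75.0, and Foxh1, a DNA-binding partner in Nodal signalling, 69.9, 78.1 and 80.4. Bmp4 had 6.65, 40.3 and 39.8 and Fgf8 17.8, 26.3 and 18.0, both genes of secreted signals. Of the 4 Wnt target genes, Axin2, a feedback inhibitor of the pathway, lacked a control peak and had 70.5 in Halo-Sox2 and 31.0 in Halo-Sox2a. Sp5, a transcription factor induced by Wnt, had 54.2, 76.5 and 61.9, Cdx1 58.1, 81.3 and 50.2, and Lef1 59.2, 36.3 and 44.2.

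The endoderm and mesoderm genes showed no common direction. Of the endoderm genes, Foxa2, a forkhead factor, was lower with both proteins (30.2 in Halo-Sox2 and 40.5 in Halo-Sox2a against 79.4 in the control). Hhex (83.9 and 81.1 against 64.8) and Gata6 (56.0 and 54.6 against 26.4) were higher with both, and Sox17, an endoderm factor of the Sox family, had 69.8, 95.4 and 72.4. Cer1 and Gata4 had no gene-end peak in any list. Of the mesoderm genes, Tbx6, a T-box factor of paraxial mesoderm (86.2 and 68.3 against 57.0), and Nkx1-2 (59.4 and 65.1 against 12.5) were higher with both proteins. Mesp2 (18.8 and 26.6 against 45.1) and Hand1 (17.3 and 8.71 against 37.5) were lower with both. Cdx2 was close to the control in Halo-Sox2 (76.4 against 79.3) and lower in Halo-Sox2a (31.0). Msgn1 had a control peak alone, at percentile 1.62.

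The genes most like each member by their counts of union regions in the 7 presence classes were named without reading any relation into them. Slc16a8 and Imp3 had the same counts as T, Nup50 the same as Mixl1, Zfp286 and Akr1b8 the same as Mesp1, and Adh4 the same as Lhx1. Ppp1r9b and Fgf23 differed from Eomes by 1 region, Olfr874 and Olfr875 from Evx1 by 1, Gm1527 from Lhx1 by 1, and Rnf126 and Cbx3 from Gsc by 2. Between 19814 and 21165 protein-coding genes on other chromosomes were compared for each member.

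The label of the cells was checked at gene ends. Of 8 embryonic stem cell markers, 5 had a peak in Halo-Sox2, 7 in Halo-Sox2a and 6 in the control, with median percentiles of 75.7, 82.6 and 69.2. All protein-coding genes gave 65.2%, 66% and 65.3% with a peak, and medians of 75.6, 81.8 and 81.3 among those, so the stem cell markers did not stand above genes in general. Zfp42 was at 97.6, 99.1 and 99.8, while Esrrb had no gene-end peak in any list and Nanog none in Halo-Sox2. All 4 neural markers had one in every list (medians 55.1, 57.7 and 46.8), as had all 3 primitive endoderm markers (56.0, 54.6 and 32.3), of which Sox17 and Gata6 are also among the streak genes above. Of 3 fibroblast markers 2, 2 and 3 had one, and of 3 trophoblast markers 1, 2 and 1. An open gene end is not expression, and by presence alone the check did not set the stem cell markers apart from the neural ones.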

How the data were processed

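ATAC-seq reads accessible DNA by where the transposase Tn5 cuts and tags it. The submitters' processing notes list the build mm10 and the tools STAR, SAMtools, MACS2 (3.0.0a7), deepTools (3.3.0) and MACS3, with no role or order, and a peak threshold is not given in the sources used here. The score in each deposited peak list is the authors' whole number per peak, from 13 upward, of unstated scale. The peak names of a list carry a single library's name, per the files, and each list was treated as called on that library alone. Library depth is unknown, and a missing peak may lie just under a threshold.

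Positions were made 1-based. Genes came from the RefSeq table of GRCm38.p6, which gives no exons, so positions inside a gene were not assigned to exon or intron. A shared peak overlapped by 1 bp or more, union regions merged overlapping peaks, and gene ends were taken to 1 kb. Overlap, merging and ranking were tested on simulated data. Python 3.11.15, numpy 2.4.6, pandas 2.3.3 and scipy 1.17.1 were used.

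The members and lists were chosen with earlier results of these data known. The named regions are the highest peak of each list at each locus, all gene-end regions, regions of 1 or 2 lists at percentile 75 or above, and the 5 shared regions with the largest difference from the control in each direction. Regions outside this rule are given for completeness. Alternatives covered the window, the overlap, list size, a score minimum, the gene-end distance and leaving out each locus. Up to 2 genes most like each member by class counts were also named, and 1 such gene is not reported here.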

Additional observations from a re-analysis of the deposited data

How the results depend on the processing

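Of 124 values of the comparisons recomputed under other settings than leaving out a locus, 112 stayed within their counting interval or within 1.5 times the count. Some of these could not change. Peak counts at the loci and counts of genes with a gene-end peak in a list do not use the overlap or merging rule. All 126 values with a locus left out also stayed within these limits, and the Halo-Sox2 share without a control peak then ran from 15.2% to 22.6%. Most peaks remain when a locus is left out and the intervals are wide. That outcome was therefore close to given and says little about how firm the values are. Peaks at the loci numbered 25, 31 and 28 (Halo-Sox2, Halo-Sox2a, control) with a window of 20 kb and 94, 102 and 90 with 100 kb, where Halo-Sox2 no longer had the fewest. The Halo-Sox2 share without a control peak was 16% with 20 kb and 27.7% with 100 kb. Regions of Halo-Sox2 alone made up 2.94% and 13.4%, so both shares came nearer those over all (49.3% and 24.3%) with the wider window. Lists of equal size (72638 peaks) moved the share of Halo-Sox2a peaks outside the control to 11.4%, of Halo-Sox2 peaks without a Halo-Sox2a counterpart to 6.25%, of regions of Halo-Sox2 and the control to 0, of Halo-Sox2a alone to 5.66%, and of shared regions lower with Halo-Sox2 to 51.7%. Equal size removes the lowest peaks of the longer lists, which lowers the percentiles of those left. With peaks above percentile 25, regions of the control alone made up 20.4% (10 of 49), and the cause was not tested. Class shares over all regions were not computed with this minimum or with lists of equal size. Whether these shifts in class shares are particular to the loci is therefore not known.

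Percentiles taken only among regions of all 3 lists, an alternative chosen after seeing the data, kept 19 of 20 named differences in direction and on their side of 20 points. Lists of equal size kept 14 of 18, and Evx1 at -22 kb, with both proteins, is missing from these 18 because its transgene peaks were removed. Mesp1 at -17.6 kb went from -18.6 to -30 points with Halo-Sox2a, and Eomes at -45.1 kb from 22 to 17.6. The Lhx1 start with Halo-Sox2a gave 13.7 points with lists of equal size and 8.36 points among shared regions. The small difference at T at -25.4 kb with Halo-Sox2 went from 4.39 to -1.27 points with lists of equal size. No paired analysis was possible because each group had 1 library. Only 41 to 53 peaks per list lay at the loci, which limits the precision of every share.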
